A study of Mus musculus with 17 samples.

Results

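Somatostatin interneurons are inhibitory neurons of the neocortex that release GABA together with the peptide somatostatin (Sst). Many of them, the Martinotti cells, send axons to layer 1 and inhibit the distal dendrites of pyramidal neurons, and a rare type that expresses Chodl and Nos1 sends axons over long distances. They arise from the medial ganglionic eminence under the transcription factors Lhx6, Sox6 and Satb1, as do parvalbumin interneurons.

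Sst interneuron nuclei were picked here from single-nucleus RNA-seq (sNucDrop-seq) of mouse neocortex by the genes that each nucleus held. A nucleus was a member if it held at least 1 unique molecular identifier (UMI) of Gad1 or Gad2, at least 1 of Sst, and at least 1 of Grin3a, Elfn1, Crhbp or Nxph1. It could hold no UMI of Pvalb, Vip, Adarb2 or Rgs9 and at most 1 of Slc17a7. Of 31486 nuclei with 600 to 5000 genes and under 5% mitochondrial UMIs, 631 were members (2.00%), 326 from control mice and 305 from stressed mice. All mice were males, C57BL/6 in the labels and C57BL/6J in the methods of the study. The stressed group had 12 days of chronic unpredictable stress (CUS), and controls were handled gently. The nuclei came from 4 control and 4 CUS mice at postnatal day 80. Bulk RNA of nuclei of the medial prefrontal cortex (mPFC) came from 4 control and 5 CUS mice at postnatal day 90, which were other animals. By the methods of the study, cortex for the nuclei was taken after the final stressor, but bulk tissue only after behavioral testing. The time since stress and the testing thus differed between nuclei and bulk.

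The 4 control mice, in the order of their replicate numbers, gave 69, 99, 126 and 32 members. The CUS mice gave 69, 57, 89 and 90. Their median depth was 2201 UMIs and 1412 genes, and over all members 85074 (control replicate 4) to 375204 UMIs per mouse were summed. Summed gene counts were not repeats of 1 library, since pairs of mice within a group gave chi-square values of 1.39 to 2.37 for each degree of freedom. A doublet score over 0.2 was found in 99 members (15.7%), close to the 15.2% of all kept nuclei. Among kept nuclei 27 barcodes occurred in more than 1 mouse, and 1 member carried such a barcode. The study ran the nuclei in 2 batches, reported a marked batch effect and used batch as a covariate. The labels do not name the batch of a mouse, so its part in the results was not tested.

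The somatostatin gene itself chose the members, so its level in them is given as a description only. Sst lies on chromosome 16 of mm10, from 23889573 to 23890958 on the minus strand. Its promoter holds a cAMP response element, the site through which the factor CREB acts in response to neuronal activity. The stretch around it is shown because Sst defines these nuclei, with the element in capitals, at chr16:23890874-23890903 on the minus strand (RefSeq, GRCm38.p6).
Sst: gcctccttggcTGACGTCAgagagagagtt
The element TGACGTCA, which reads the same on both strands, ended 41 bases before the RefSeq start of the gene, and inside the span of Sst in the deposited bulk files. It was present in 588 of 32851 promoter windows of 300 bases (1.79%).

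Members held a median of 5 Sst UMIs, with quartiles of 2 and 11 and a highest count of 125. Exactly 1 Sst UMI was found in 142 members, 2 to 4 in 156 and 5 or more in 333. Over the members of a mouse, Sst took 27.8, 25.7, 36.7 and 32.1 of every 10000 UMIs in the control mice (here and below in replicate order). It took 29.3, 26.0, 40.5 and 54.3 in the CUS mice. The groups overlapped, and CUS replicate 4 was the highest mouse. Sst UMIs were also found in other nuclei, and their source was not tested. Of 2816 excitatory nuclei (at least 2 Slc17a7 UMIs, no Gad1 or Gad2) with a median of 3614 UMIs, 8.52% held an Sst UMI, and 2.76% of 507 did at 1000 UMIs per nucleus. In those nuclei Sst took 0.156 to 0.573 of every 10000 UMIs per mouse. The share of excitatory nuclei with an Sst UMI was 13.2% in CUS replicate 1 and 5.99% to 9.81% in the other mice.

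The partner genes of the rule were found in unequal shares of the members. Nxph1, a secreted ligand of neurexins, was present in 520 members and Grin3a, an NMDA receptor subunit, in 417. Crhbp, which binds corticotropin-releasing hormone, was present in 204 members, and Elfn1, a synaptic protein that recruits glutamate receptors to inputs of these cells, in 153. Of the 4 partners, 212 members held 1, 222 held 2, 150 held 3 and 47 held all. Before nuclei with Pvalb, Vip, Adarb2 or Rgs9 were left out there were 1060 candidates, of which 236 held Rgs9, 139 Adarb2, 88 Pvalb and 29 Vip. Nxph1 took 571 CPM (UMIs of a gene scaled to a common total) in members of CUS replicate 1 and 1102 to 1411 in the other mice.

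As a sum, known class genes that the rule did not use followed the label. The summed level of 12 known genes of Sst interneurons was 4670 to 7020 CPM in members, against 2532 to 3517 CPM in 404 Pvalb nuclei (Gad1 or Gad2 and Pvalb present, no Sst, Vip, Adarb2 or Rgs9). It was 1724 to 2872 CPM in 342 Vip nuclei, 3153 to 4471 CPM in 167 Ndnf nuclei and 706 to 851 CPM in excitatory nuclei (ranges over 8 mice). In this sum members did not overlap any of the other classes. Single genes separated the classes less. Cort, Calb1, Cbln4, Tac1 and Kcnc2 overlapped Pvalb nuclei, and Cbln4 also overlapped Vip and excitatory nuclei. Lhx6, the medial eminence factor, ran from 42.6 to 106 CPM in members and from 24.2 to 69.3 CPM in Pvalb nuclei, so those ranges overlapped, and it was at 0 UMIs in Ndnf nuclei. Sox6 (297 to 555 CPM) and Satb1 (204 to 351 CPM) likewise overlapped Pvalb nuclei and lay above Vip and Ndnf nuclei. Npy, a peptide that Sst cells release, ran from 719 to 2538 CPM and overlapped Ndnf nuclei (239 to 2134 CPM). Reln, a secreted matrix protein, was lower in members (233 to 687 CPM) than in Ndnf nuclei (858 to 2730 CPM), and Synpr, a synaptic vesicle protein, was lower (262 to 640 CPM) than in Vip nuclei (719 to 1162 CPM). These are descriptions without a test, since the classes were picked by genes measured in the same nuclei.

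**Figure D1:**
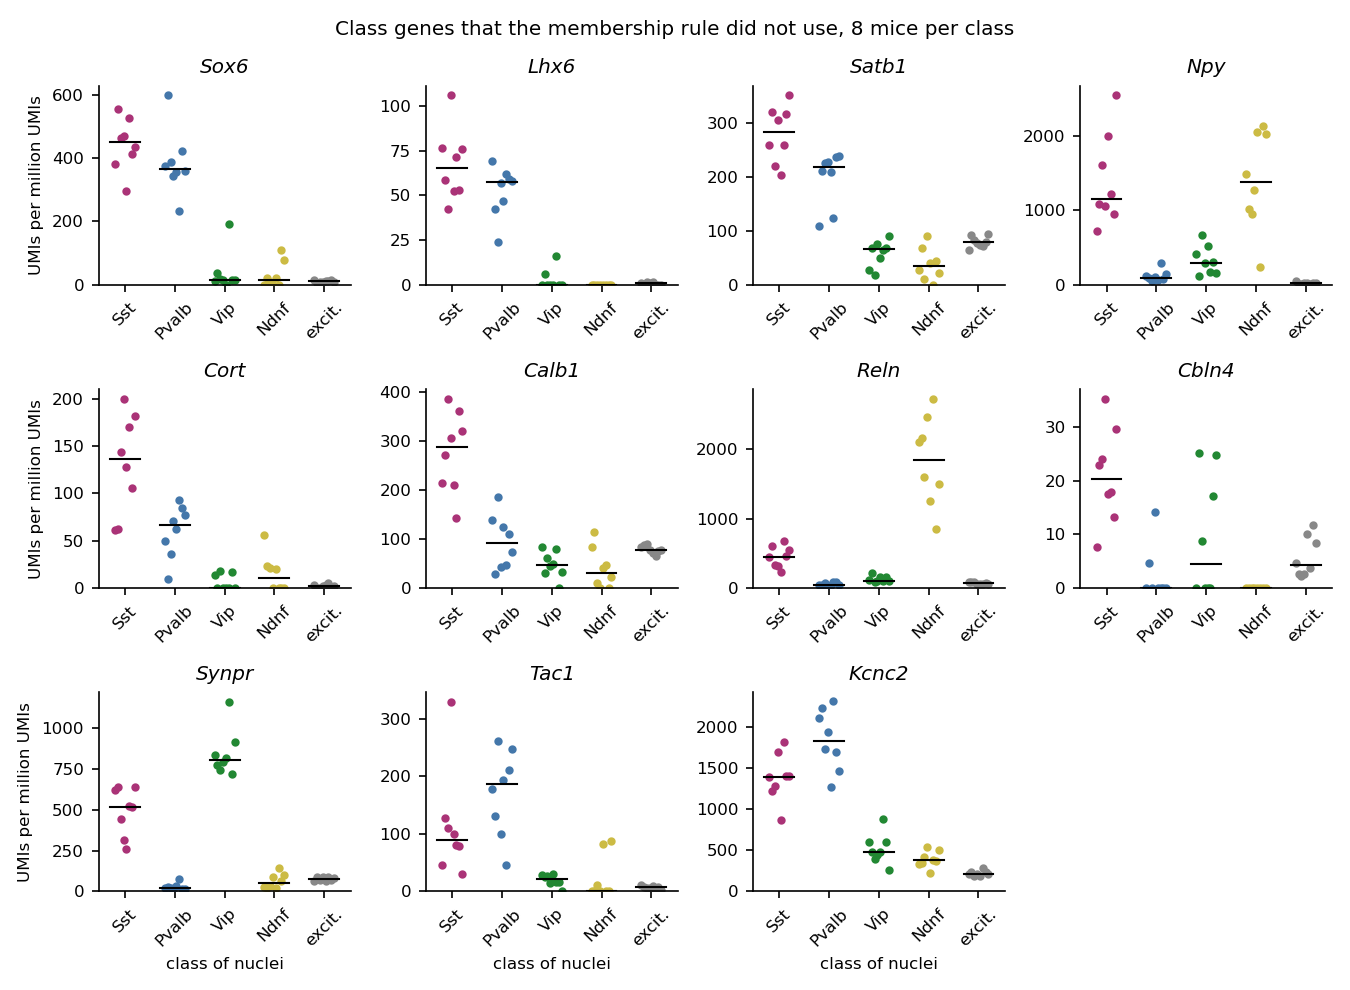
Levels of 11 of the 12 genes known from Sst interneurons that the rule did not use, in CPM (vertical axis), in Sst members, Pvalb, Vip, Ndnf and excitatory nuclei (horizontal axis). Each point is 1 of 8 mice and each line the median; Sox6 in members (297 to 555) lies above Vip and Ndnf nuclei and overlaps Pvalb nuclei, as does Lhx6.

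Among genes outside the rule with at least 50 UMIs in members, the largest folds over the highest of the Pvalb, Vip and Ndnf classes were listed after the values were seen. A filter on members alone and a ranking by fold favour large ratios, so these are descriptions without a test. Pdyn, which encodes prodynorphin, led with 60.2 CPM in members against 2.66 CPM in Vip nuclei, a ratio of 22.7. By mouse Pdyn overlapped, with a lowest value of 11.8 CPM in members and a highest of 14.0 CPM in the other classes. Chodl followed with 31.0 CPM against 2.32 CPM in Ndnf nuclei, a ratio of 13.4 that rests on 51 UMIs. Both ratios divide by very low levels. Chodl also overlapped by mouse (lowest 0 CPM in members, highest 28.1 CPM in the other classes). L3mbtl4, Adamts18 and Ptpru came next and overlapped by mouse as well. Rbp4, a retinol-binding protein, had 134 CPM in members against 27.9 CPM in Pvalb nuclei and was higher in the members of each mouse (65.3 to 224 CPM) than in any mouse of these 3 classes (at most 59.4 CPM). Unc13c, a synaptic vesicle priming protein, had 216 CPM against 48.6 CPM. By mouse it overlapped, with a lowest value of 99.0 CPM in members and a highest of 132 CPM in the other classes.

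The edge of the rule was not sharp. Nuclei that met every other part of the rule but held no Sst UMI numbered 859, with a median of 2013 UMIs against 2038.5 in members with 1 Sst UMI. Sox6 was at 240 CPM in these nuclei, 279 CPM with 1 Sst UMI, 384 CPM with 2 to 4 and 540 CPM with 5 or more. Npy went from 141 and 226 CPM to 454 and 2303 CPM over the same steps, and Reln from 80.1 and 173 CPM to 442 and 565 CPM. Syt2, a synaptotagmin of parvalbumin interneurons, took the opposite course, from 61.2 and 33.5 CPM to 14.6 and 6.35 CPM. Tac1, which encodes substance P and is found in both kinds of interneuron, was at 142, 159, 161 and 56.1 CPM. For Sox6, Npy, Reln and Tac1, members with 1 Sst UMI lay nearer to the nuclei just outside the rule than to members with 5 or more, so results are also given with a minimum of 2 or 5 Sst UMIs where these change a call.

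**Figure D2:**
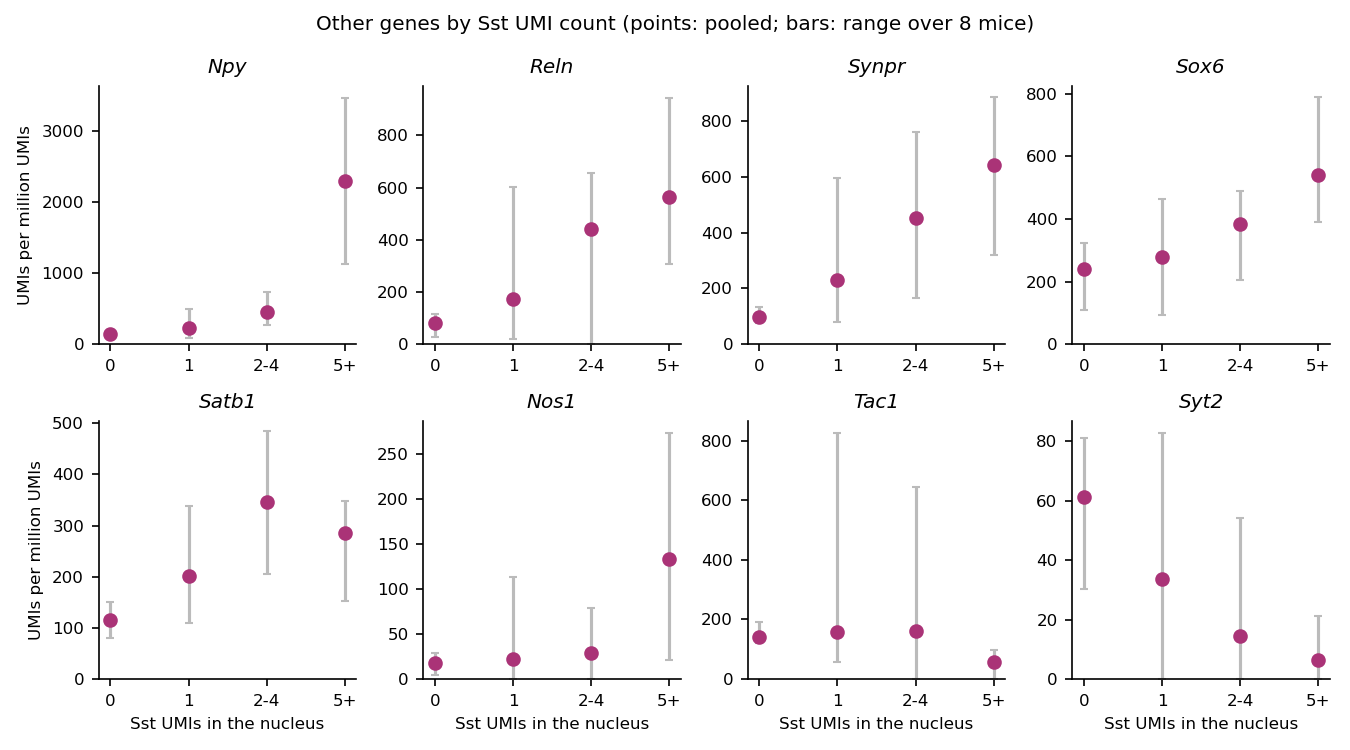
Levels of 8 genes in CPM (vertical axis) by the number of Sst UMIs in the nucleus (horizontal axis; 0 is the 859 nuclei just outside the rule). Points pool all nuclei of a step and bars span the lowest to the highest mouse; Npy reaches 2303 at 5 or more Sst UMIs and Syt2 falls to 6.35.

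Genes of known Sst subtypes were spread unevenly over the members. Npy was found in 328 members, Reln in 246, Calb1, a calcium-binding protein of Martinotti cells, in 203 and the cadherin Cdh7 in 176. Nos1 and Pdyn were each found in 61 members, Tac1 in 59, Mme in 44, Etv1 in 42, Nr2f2 in 39, Crh in 34, Calb2 in 31, Cbln4 in 30 and Hpse in 29. Chodl and Tacr1 were each found in 23, Crhr2 in 13, Nmbr in 12, Nts in 11, and Tac2, Myh8, Th, Esm1 and Chrna2 in at most 5. The share of members with Npy had a median of 53.1% over mice and the share with Calb1 from 21.1% to 43.7%. Members with Chodl came from 6 mice, with 0 in CUS replicates 2 and 3.

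Chodl marked members with a common set of peptides and enzymes. Of the 23 members with Chodl, 22 held Npy (95.7%), against 50.3% of the other 608. Nos1, the neuronal nitric oxide synthase, was present in 14 of the 23 (60.9%) against 7.73%, and Tacr1, the substance P receptor, in 9 (39.1%) against 2.30%. Npy took 10079 CPM in the members with Chodl and 1042 CPM in the others. Their median depth was 2694 UMIs against 2185, and at 1000 UMIs per nucleus Nos1 was still present in 45.5% against 3.65%. The Npy share was higher with Chodl than without it in 6 of 6 mice that had such members, and the Nos1 share in 5 of 6.

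**Figure D3:**
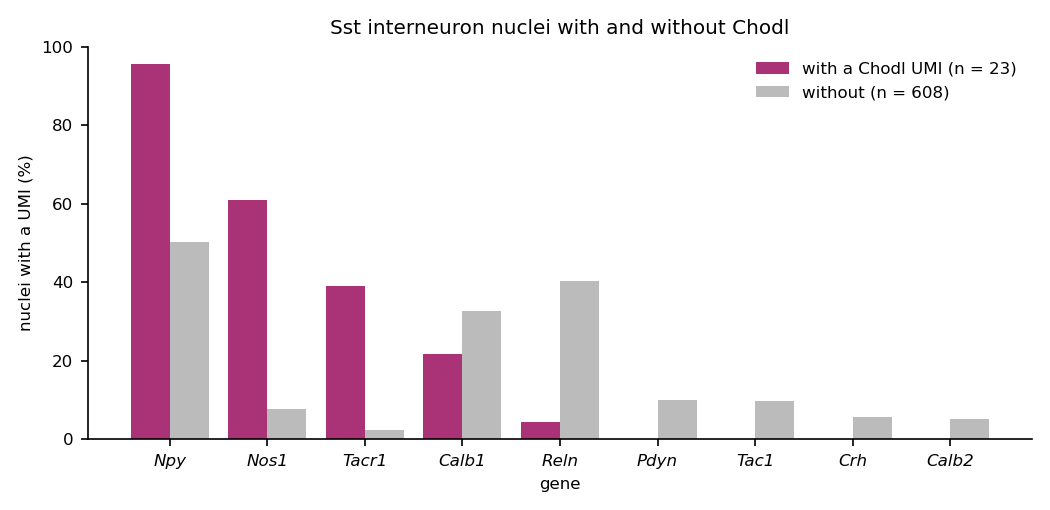
Share of Sst interneuron nuclei that held at least 1 UMI of each gene (vertical axis, percent; genes on the horizontal axis), in the 23 nuclei with a Chodl UMI and the 608 without. Npy (95.7%), Nos1 (60.9%) and Tacr1 (39.1%) stand higher with Chodl, and Pdyn, Tac1, Crh and Calb2 are at 0 there.

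A second set of subtype genes was found around Pdyn. Of the 61 members with Pdyn, 50 held Reln (82.0%) against 34.4% of the others, and 40 held Cdh7 (65.6%) against 23.9%. Hpse, which encodes heparanase, was present in 17 (27.9%) against 2.11%. No member held both Pdyn and Chodl or both Pdyn and Crh, but Chodl and Crh were found in only 23 and 34 members in all. Whether these genes exclude each other was not tested. Reln was more frequent with Pdyn than without it in 8 of 8 mice, Cdh7 in 7 and Hpse in 4. Members with Pdyn were deeper (median 2933 UMIs against 2165), and at 1000 UMIs Reln was present in 64.4% against 22.4%.

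The 59 members with Tac1 differed from the rest in other genes. Kcnc2, a potassium channel of fast-spiking neurons, was present in 57 of them (96.6%) against 76.0% of the others and took 2481 CPM against 1202 CPM. Reln was present in 8 (13.6%) against 41.6%. Kcnc2 was more frequent with Tac1 in all 8 mice, while Grin3a, a partner gene of the rule, was less frequent with Tac1 in all 8. These pairs of genes were picked after their values were seen and are given without a test.

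The question of the CUS comparison is whether the number of these nuclei or their transcripts changed after stress. Members made up 2.00%, 2.05%, 2.54% and 1.41% of the kept nuclei of the control mice. In the CUS mice they made up 1.70%, 1.65%, 2.47% and 1.85%. The means were 2.00% ± 0.462 and 1.92% ± 0.377 (SD, n = 4 each), and the groups overlapped (two-sided exact permutation test, p = 0.83, where the smallest possible p is 0.0286). The exact binomial 95% interval of a mouse's share covers counting error only. It was, for example, 0.967% to 1.99% in control replicate 4 and 1.99% to 3.03% in CUS replicate 3. As a share of GABAergic nuclei (Gad1 or Gad2 present, at most 1 Slc17a7 UMI, no Rgs9) the difference turned, with 10.9% ± 2.14 in control and 11.2% ± 2.18 in CUS mice (exact permutation p = 0.743). The sign also turned at a minimum of 1000 genes, without control replicate 3 and without CUS replicate 2.

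Since Sst chose the members, its level was compared in all 5611 GABAergic nuclei, which were chosen without it. There Sst took 3.69, 3.36, 5.87 and 3.52 of every 10000 UMIs in control mice. It took 4.23, 3.21, 7.29 and 6.85 in CUS mice. CUS replicates 3 and 4 were above every control mouse and CUS replicate 2 was below all of them. The means were 4.11 ± 1.18 and 5.39 ± 1.99 (n = 4 each, two-sided exact permutation test, p = 0.257). The difference of 1.28 was above the SD of the control mice and below that of the CUS mice. More nuclei that express Sst and more Sst per nucleus cannot be told apart in such a sum.

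**Figure D4:**
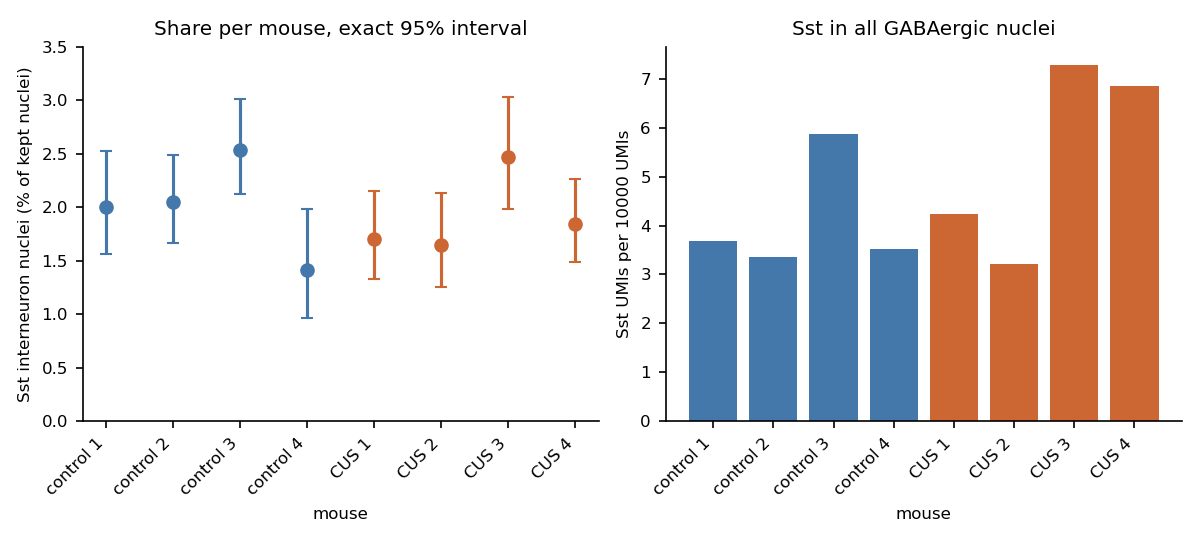
Left, Sst interneuron nuclei as a percentage of kept nuclei per mouse, with exact 95% binomial intervals. Right, Sst UMIs per 10000 UMIs summed over all GABAergic nuclei of a mouse; control mice (blue) and CUS mice (orange) overlap in both, with CUS replicates 3 and 4 at 7.29 and 6.85 on the right.

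Transcripts were compared on UMIs summed over the members of each mouse, with the genes of the rule left untested. Levels below are CPM scaled by TMM factors, fold changes are CUS against control, and errors of levels are SDs over 4 mice. Of 5291 genes tested with edgeR's quasi-likelihood test, 3 (0.0567%) passed an FDR of 0.2, Camk2d, Ndst4 and Hs6st3, all lower in CUS mice, and 0 genes were called higher. An unadjusted p under 0.05 was found for 279 genes (5.27%), 140 higher and 139 lower. CUS and control mice did not overlap for 147 of all genes tested (2.78%), with CUS mice above in 1.46% and below in 1.32%. With edgeR's likelihood ratio test, which the study used with a batch term that is absent here, 10 genes were called, 4 of them higher. DESeq2 called 0 genes with 101 at an unadjusted p under 0.05. Single mice decided the count, which was 0 without CUS replicate 1, 3 or 4, 1 without control replicate 4, 5 without control replicate 1 and 8 without CUS replicate 2. It was also 0 without members of a doublet score over 0.2 and at a minimum of 1000 genes, and 7 with at least 5 Sst UMIs, where Hs6st3 alone of the 3 genes was called. With at least 2 Sst UMIs Ndst4 lost its call (log2 fold change -1.17, FDR 0.673 from edgeR). In simulated counts for this comparison the test found 71.0% of 200 genes given a log2 change of 1, and 97.5% where the change was 2. With 200 genes changed at once, the FDR threshold can be passed at a larger unadjusted p than in data with 3 calls. These percentages therefore do not give the power of the test in the data, and the low number of calls does not show that few genes changed.

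Camk2d, the delta subunit of calcium/calmodulin-dependent protein kinase II, lies on chromosome 3 of mm10 from 126596302 to 126846326. Its level was 240, 394, 235 and 507 CPM in control mice and 182, 161, 129 and 172 CPM in CUS mice. Every CUS mouse was below every control mouse. The log2 fold change was -1.03 (standard error 0.23, FDR 0.133 from edgeR), on 284 control and 121 CUS UMIs. Over 18 alternatives it stayed between -1.22 and -0.87 and was called in 8. The bulk mPFC of other mice gave Camk2d 204 ± 10.2 CPM (n = 4) and 168 ± 14.8 CPM (n = 5), without overlap, and a log2 fold change of -0.27 (FDR 0.0474, edgeR). That FDR lies just under the bulk threshold of 0.05. Alternatives of the bulk fit are given for the markers of the class alone, not for Camk2d, Ndst4 or Hs6st3. In the mice of the members, before TMM scaling and without a test, the mean of Camk2d over all kept nuclei was 205 CPM in both groups. It was higher in CUS mice in Ndnf nuclei, at 125 and 217 CPM, and in barcodes under 600 genes, at 145 (3 control mice) and 209 CPM. In Pvalb nuclei its log2 fold change was 0.11 (standard error 0.24).

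Ndst4, a heparan sulfate sulfotransferase, lies on the same chromosome from 125404076 to 125728899. It had 85.2, 74.9, 125 and 48.3 CPM in control mice and 22.7, 38.0, 34.5 and 28.6 CPM in CUS mice, with no overlap. These levels rest on 86 and 23 UMIs, of which control replicate 4 gave 4 UMIs. The log2 fold change was -1.58 (standard error 0.35, FDR 0.133 from edgeR). Over 17 alternatives it ran from -1.69 to -1.17, with a call in 8. In bulk mPFC, Ndst4 fell from 51.1 ± 44.4 CPM to 4.28 ± 1.35 CPM, a log2 fold change of -3.59 (FDR 0.00968, edgeR), and the control mice ran from 9.32 to 102 CPM. Excitatory nuclei held Ndst4 at 43.4 to 116 CPM in control and 38.2 to 106 CPM in CUS mice, and barcodes under 600 genes at 12.7 to 110 and 28.04 to 60.7 CPM. The part of other cells or free RNA in its fall in the members was not tested.

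Hs6st3, another heparan sulfate sulfotransferase, lies on chromosome 14 from 119138341 to 119869815. It had 116, 560, 219 and 399 CPM in control mice and 68.2, 199, 108 and 196 CPM in CUS mice. The mean of the control mice was above each CUS mouse, but the groups overlapped. Its log2 fold change was -1.23 (standard error 0.29, FDR 0.194 from edgeR) and -0.70 without control replicate 2, where the call was lost (FDR 0.998). Over 18 alternatives Hs6st3 stayed between -1.50 and -0.70 and was called in 9. In bulk mPFC the log2 fold change was 0.037 (FDR 0.897, edgeR). In the same mice as the members and before TMM scaling, Hs6st3 had means of 749 CPM in control and 535 CPM in CUS mice in Vip nuclei, 636 and 518 CPM in excitatory nuclei and 670.3 and 549.7 CPM over all kept nuclei, while in Ndnf nuclei the CUS mean was the higher, 404 against 281 CPM (not tested).

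Neither direction had 5 genes past the threshold, so the next genes by p are given as values. Lingo2, an adhesion protein, had 1311 ± 496 CPM in control and 787 ± 62.7 CPM in CUS mice (log2 fold change -0.77, FDR 0.332 from edgeR). Hdac9, a histone deacetylase, had 423 ± 190 and 220 ± 44.9 CPM. Both were below the control mean in 4 of 4 CUS mice. On the other side, Ptgds, a prostaglandin D synthase, had 38.6 ± 17.7 and 109 ± 84.6 CPM, and the glycolytic enzyme gene Eno1 had 22.8 ± 1.39 and 61.9 ± 31.7 CPM. Pink1, a kinase of mitochondrial quality control, had 62.0, 48.8, 52.1 and 12.1 CPM in control mice and 131, 104, 94.9 and 98.2 CPM in CUS mice without overlap, from 44 and 80 UMIs. Rbp4, among the leading genes of the class, had 116, 65.1, 109 and 84.6 CPM in control mice and 210, 142, 134 and 217 CPM in CUS mice, also without overlap (log2 fold change 0.93, standard error 0.25, FDR 0.332 from edgeR). Clcn4, a chloride transporter, had 81.8 ± 12.0 and 147 ± 52.3 CPM. None of these genes passed the threshold in the test as described or in DESeq2, while edgeR's likelihood ratio test called all of them but Clcn4. Lingo2, Hdac9 and Ptgds were also called without a filter on low counts, Lingo2 and Hdac9 with at least 5 Sst UMIs and Ptgds with at least 2. With 1 mouse left out, Lingo2 was called without control replicate 1, Hdac9 without control replicate 3, and Hdac9, Ptgds and Eno1 without CUS replicate 2.

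**Figure D5:**
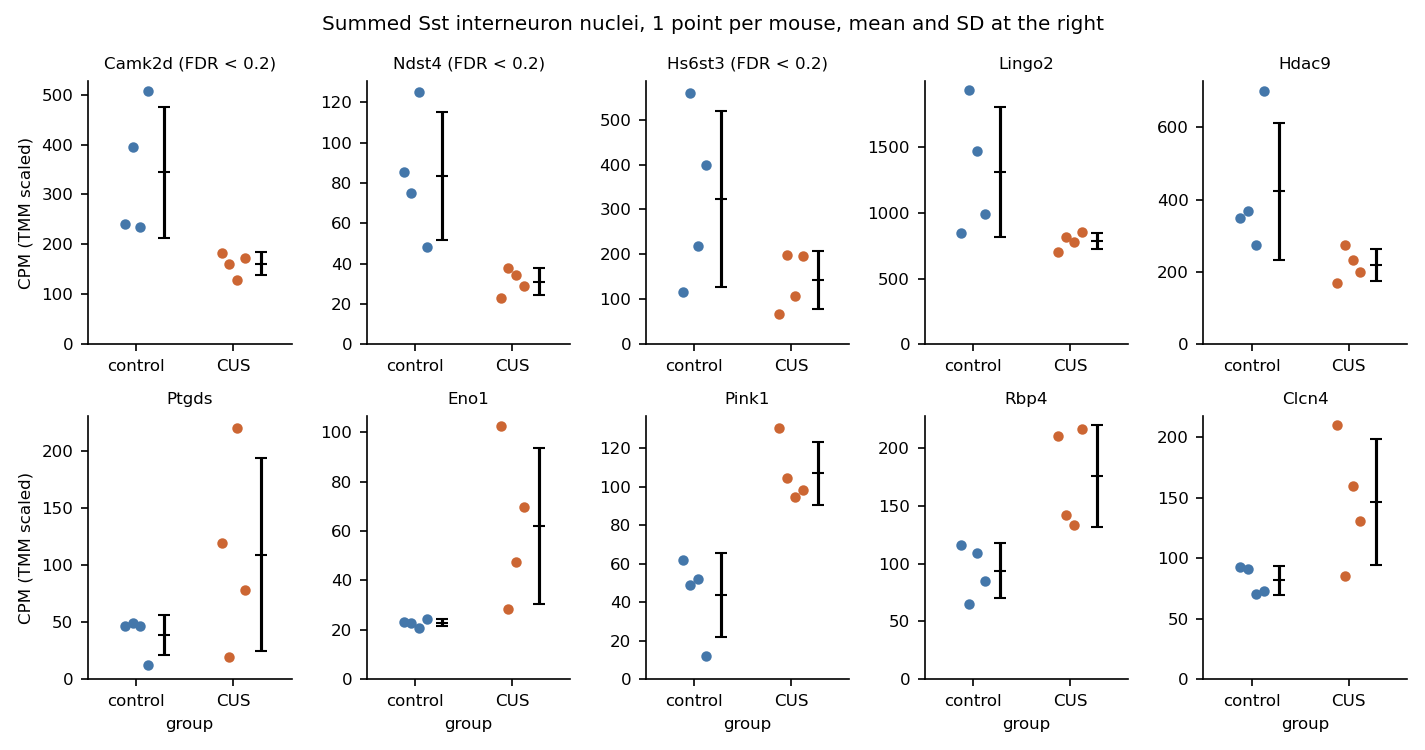
TMM-scaled CPM (vertical axis) of 10 genes, the 5 of smallest p on each side, in summed Sst interneuron nuclei of control and CUS mice (horizontal axis). Each point is 1 mouse and each bar the mean ± SD; the 4 CUS mice sit below all control mice for Camk2d (129 to 182 CPM) and Ndst4 (22.7 to 38.0 CPM), and above them for Eno1, Pink1 and Rbp4.

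UMIs of marker genes of other cell types were found in the members, and whether they came from other cells was not tested. Ptgds is abundant in oligodendrocytes and meninges, and barcodes under 600 genes held it at 450 to 1431 CPM in the 3 control mice that had them and at 877 to 2146 CPM in CUS mice, far above the 11.8 to 224 CPM of members. The summed level of 8 oligodendrocyte genes in members was 470 to 1242 CPM in control and 223 to 938 CPM in CUS mice, with all 8 detected. The 8 astrocyte genes ran from 212 to 1162 and from 339 to 950 CPM, 7 microglia genes from 30.6 to 153 and from 67.7 to 116 CPM, and 4 genes of oligodendrocyte precursors from 11.8 to 61.2 and from 0 to 48.4 CPM. The 4 endothelial genes were at 0 to 3.27 CPM in control mice and reached 134 CPM in CUS replicate 2. Choroid plexus genes were at most 44.6 CPM, with Clic6 at 0, and 11 excitatory genes outside the rule were at 497 to 927 and 596 to 1089 CPM. The 7 striatal genes took 364 to 615 CPM over the 8 mice. The part of these markers in the gene results was not tested. In the members the 2 tested genes with the smallest p of their lists were Cux2 and Rorb (excitatory), and Mbp and Mag (oligodendrocyte), with log2 fold changes of -0.34, -0.26, -0.67 and -0.71, and the astrocyte gene Gpc5 had -0.64. All 3 tested oligodendrocyte genes were below 0, with a median of -0.67, but 3 of 5 tested astrocyte genes were above 0, with a median of 0.33. For Npas1 and Cck (Vip interneurons), Lamp5 and Reln (Lamp5 interneurons) they were 0.24, -0.014, 0.21 and 0.12. The striatal gene Pde10a had 0.091, and microglia genes are given by their summed level alone.

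No gene of the pathway lists passed the FDR of 0.2 in members, neither in the quasi-likelihood nor in the likelihood ratio test of edgeR nor in DESeq2, though 1 did with a mouse left out. Counts at an unadjusted p under 0.05, to be read against 5.27% of all genes, and medians, to be read against -0.0071 over all genes, follow by role. Of 17 tested genes of neuropeptides and their processing, 1 was higher and 1 lower, with a median log2 fold change of 0.16. Npy had 1116 ± 347 CPM in control and 1657 ± 679 CPM in CUS mice (log2 fold change 0.56, FDR 0.902 from edgeR), higher than the control mean in 3 of 4 mice. Tac1 had 155 ± 127 and 72.1 ± 30.0 CPM, below the control mean in 4 of 4, but the groups overlapped. It was at 46.5, 127, 107 and 338 CPM in control mice and 96.6, 85.4, 77.6 and 28.6 CPM in CUS mice. Control replicate 4, at 338 CPM, raised the control mean above every other mouse. Of the 11 tested genes known from Sst cells outside the rule, Npy and Tac1 were the only 2 under 0.05, and they were also the only 2 of 7 tested subtype genes. For genes that make and move GABA, 1 of 7 was higher and none lower. Slc32a1, the vesicular GABA transporter, had 195 ± 37.3 and 278 ± 69.6 CPM, higher than the control mean in 4 of 4 mice, and Glul, glutamine synthetase, had a log2 fold change of 0.63.

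Of 16 tested GABA receptor and anchoring genes, 12 had a log2 fold change below 0, where 2703 of all 5291 genes did, with a median of -0.13, and 1 was lower at p under 0.05. This was Gabra2, a GABA-A receptor subunit, with 283 ± 83.6 and 194 ± 20.8 CPM, and Gphn, the scaffold gephyrin, had 678 ± 51.2 and 529 ± 60.6 CPM. The 19 tested glutamate receptor genes had a median log2 fold change of -0.079, and Grik2, a kainate receptor subunit, had -0.28. Of 3 tested serotonin receptors 2 were lower, Htr2c with 127 ± 42.6 and 76.8 ± 53.9 CPM and Htr1f with 123 ± 81.5 and 61.2 ± 14.3 CPM. Htr2c was called without CUS replicate 2, which had 152 CPM against 32.7 to 79.6 CPM in the other CUS mice, and its log2 fold change was then -1.48 (FDR 0.0755, edgeR) in place of -1.08. Both muscarinic receptors tested had values below 0, Chrm2 with 148 ± 17.6 and 102 ± 20.1 CPM and Chrm3 with a log2 fold change of -0.26. Of 36 ion channel genes 3 were lower and none higher, 25 were below 0 (against the same 2703 of 5291) and the median was -0.17. Kcnb2 had -0.46 and Kcnt2 -0.57, both potassium channels. The parvalbumin list held Kcnc1, a fast-spiking channel, with 0.27 beside Tac1. No somatostatin receptor had enough UMIs to be tested, and the most frequent, Sstr1, gave 32 UMIs in 29 members.

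Among 21 synaptic adhesion genes Nlgn1, a neuroligin, had a log2 fold change of -0.44 and Slitrk3, a partner of inhibitory synapses, 0.53, with a median of -0.015. Of 7 corticosteroid and CRH pathway genes 1 was higher, the glucocorticoid-induced kinase Sgk1 with 72.2 ± 9.62 and 121 ± 41.9 CPM, and Hsp90aa1, a chaperone of the receptor, had 0.21. Only 8 of 36 activity-regulated genes could be tested. None was under 0.05, their median was 0.18, and Vgf and Pcsk1, a secreted peptide precursor and a prohormone convertase, had 0.40 and 0.65. None of 10 interneuron transcription factors (median 0.039; Dlx1 0.36) and none of 10 genes of Yy1, Ctcf and cohesin (median -0.079; Rad21 -0.26, Smc1a -0.17) was under 0.05.

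The CUS effect was then compared with that in Pvalb nuclei of the same mice. Of 5664 genes tested for a difference in effect, 1 (0.0177%) passed an FDR of 0.2 in edgeR's quasi-likelihood test with the mouse as a block, while 215 (3.8%) were under 0.05 before adjustment. The gene was Lingo2, on chromosome 4 from 35706647 to 36951747. In members it had 846, 1953, 1484 and 995 CPM in control and 713, 815, 779 and 858 CPM in CUS mice on the scale of this fit. In Pvalb nuclei it had 306, 587, 460 and 201 CPM in control and 498, 547, 345 and 474 CPM in CUS mice. Within members all CUS mice but CUS replicate 4 were below all control mice, while the groups overlapped in Pvalb nuclei. Means in Vip and excitatory nuclei were also lower in CUS mice, before TMM scaling and without a test. Lingo2 ran from 1932 to 2012 CPM in control and from 1405 to 1919 CPM in CUS mice in Vip nuclei, without overlap, and had means of 1912 and 1647 CPM in excitatory nuclei. The difference of the log2 effects was -0.94 (standard error 0.19, FDR 0.0586 from edgeR). It lost its call without control replicate 2 or 3 and without CUS replicate 1 or 4, with FDRs of 0.400, 0.229, 0.71 and 0.382 and a difference of -0.99 to -0.87. Upward, the genes with the smallest p were Il1rapl2 (0.90), Emc9 (1.82) and Suz12 (1.45), none past the threshold. For Camk2d the difference was -1.08 (FDR 0.835, edgeR).

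Bulk nuclear RNA of the mPFC gave the class's markers a readout that the rule did not use. In bulk, fewer cells of a type and less RNA per cell cannot be told apart. Of 18394 genes, 606 (3.29%) passed an FDR of 0.05 in edgeR's quasi-likelihood test, 1.16% higher and 2.13% lower (214 and 392 genes), on 26188825 to 30525015 reads per mouse. The balance of directions depended on scaling and on 1 mouse, with 202 higher and 613 lower without TMM factors and 767 higher and 734 lower without control replicate 3. Sst had 10.9, 8.76, 11.9 and 11.9 CPM in control and 13.4, 10.8, 14.7, 16.3 and 15.9 CPM in CUS mice. All but 1 of the CUS mice were above every control mouse, and the log2 fold change of 0.39 (standard error 0.12) had an FDR of 0.0952. It passed 0.05 with the likelihood ratio test (FDR 0.0473), DESeq2 (FDR 0.0456) and without CUS replicate 2 (FDR 0.0395). Crhbp had 3.51 ± 0.403 CPM (n = 4) and 4.37 ± 0.255 CPM (n = 5), with an FDR of 0.128 from edgeR. Grin3a (log2 fold change -0.11), Elfn1 (0.18) and Nxph1 (-0.067) did not pass either, though Elfn1 did without control replicate 3 (0.44, FDR 0.00937 from edgeR).

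The 12 genes known from Sst cells had a median log2 fold change of 0.15 in bulk, against 0.0060 over all genes. Of the 12, 1 passed an FDR of 0.05, higher, and 4 were higher and 1 lower at an unadjusted p under 0.05. Over all bulk genes 3954 of 18394 (21.5%) were under that p. Npy, which did not pass, had 5.29 ± 1.01 and 7.42 ± 0.817 CPM (log2 fold change 0.49, FDR 0.0606 from edgeR). Of 19 tested subtype genes, 1 passed, Hpse, from 0.396 ± 0.0694 to 0.916 ± 0.183 CPM, while 12 of the 19 were below 0 and the median was -0.10. Of these 19, 3 were higher and 2 lower at an unadjusted p under 0.05, to be read against the same 21.5% of all bulk genes. Other cells also express some of these genes, such as Npy at 239 to 2134 CPM in Ndnf nuclei. Markers of other cells were read in the same mice. Of 12 excitatory genes 9 had log2 fold changes above 0, with a median of 0.20, while all 8 oligodendrocyte genes, all 8 astrocyte genes and 6 of 7 striatal genes were below 0, with medians of -0.51, -0.35 and -0.77. Over all genes 8952 of 18394 were below 0. Their part in the bulk values of the markers was not tested.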

How the data were processed

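The deposited sNucDrop-seq files hold UMI counts per gene and barcode, 5000 barcodes per mouse, without normalization. The deposited bulk files hold read counts per gene. The authors mapped reads to mm10 and counted exonic and intronic UMIs on the annotated strand (nuclei) or uniquely mapped reads from a stranded kit aligned with STAR (bulk). Here nuclei were filtered to 600 to 5000 genes and under 5% mitochondrial UMIs, and classes were set by the rules in the text. Doublet scores came from Scrublet in scanpy 1.11.5 with an expected rate of 0.1, and members over 0.2, which the authors removed, were kept except in an alternative.

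UMIs were summed per mouse. For nuclei, a gene entered the test if its UMIs over all members came to more than 10% of their number. Tests used edgeR 4.0.16 under R 4.3.3 (TMM, quasi-likelihood, Benjamini-Hochberg FDR 0.2 for nuclei and, after filterByExpr, 0.05 for bulk). A standard error is the log2 fold change divided by the square root of the F statistic. Shares were compared by exact permutation. Alternatives were the likelihood ratio test, DESeq2 1.42.0, no TMM factors, other filters and membership rules, a replicate block, and each mouse left out. The labels do not give the batch that the authors used as a covariate. Thinning drew 1000 UMIs from 28791 nuclei and left out 2695 shallower ones. The test was run on simulated counts of 5291 genes with 200 changed.

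Genes named are the 5 per direction with the smallest p, the 2 with the smallest p of each list and the markers of the class. The members, gene lists and rules were chosen with earlier results of these data known, and the minimum of 5 Sst UMIs was added after the data were seen. Some genes that these rules select are not reported here.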

Additional observations from a re-analysis of the deposited data

Results flagged for a closer look

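Over the named genes and the shares, 100 groups of 4 or 5 mice were checked for a mouse far from the others, and 9 had one. Chance alone flags about 1 in 20 groups. Control replicate 3 stood above the other control mice in Sst UMIs per 10000 UMIs of GABAergic nuclei, at 5.87. In the members, control mice had a single distant value for Ptgds (12.1 CPM, from 1 UMI), Vgf (121 CPM) and Kcnb2 (505 CPM), and CUS mice for Gphn (438 CPM) and Pde10a (607 CPM). In bulk, 1 CUS mouse was distant for Elfn1 (20.1 CPM) and for Nxph1 (444 CPM), and 1 control mouse for Crhbp (4.11 CPM).

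Lingo2 was the gene whose CUS effect differed between Sst and Pvalb nuclei, by -0.94 on the log2 scale (FDR 0.0586, edgeR's quasi-likelihood test of the difference), lower in 4 of 4 CUS mice than the control mean in members.

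Barcodes under 600 genes, which were in no tested comparison, held Sst. It made up 1.65 of every 10000 UMIs over 8246 such barcodes (746 of 4532599 UMIs), above the 0.00662 that 3 UMIs would give, which shows detection only. By mouse it ran from 0.219 in control replicate 2 (113 barcodes) to 6.35 in CUS replicate 4 (80 barcodes). Control replicate 3 had no such barcodes.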

How the results depend on the processing

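The count of genes called in Sst nuclei, 3 in the test as reported, was 0 with DESeq2, 0 at a minimum of 1000 genes, 0 without doublet scores over 0.2, 0 where summed UMIs had to exceed 50% of nuclei, 7 without a filter, 10 with the likelihood ratio test and 7 with at least 5 Sst UMIs, and 3 of the calls were shared without TMM factors. With mice left out it ran from 0 to 8. Leaving out mice gave 0 to 3 genes for the comparison with Pvalb nuclei (1 as reported) and 132 (without control replicate 2) to 1501 (without control replicate 3) in bulk, with 142, 148, 315 and 353 without CUS replicates 5, 4, 3 and 1. Bulk gave 1330 genes with the likelihood ratio test and 1402 with DESeq2.

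With a replicate block 8 genes were called in Sst nuclei, Lingo2, Hdac9 and Ptgds among them, and, on the 4 numbers shared in bulk, 233. Same-numbered mice had correlations of -0.21 to 0.12 (nuclei) and -0.19 to 0.41 (bulk) in their deviations from the group means. With 4 such pairs in each data set, these values cannot settle whether the numbers pair mice. The share and the Sst level had p of 0.75 and 0.25 with the block, where 0.125 is the smallest possible.

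The share of members turned from -0.084 percentage points to 0.23 as a share of GABAergic nuclei and to 0.049 at 1000 genes, and mice left out gave a highest value of 0.096 (without control replicate 3) and a lowest of -0.28. Named genes without a call turned sign as follows. With at least 5 Sst UMIs Rad21, Rorb, Cck, Gpc5 and Pde10a had 0.046, 0.16, 0.19, 0.52 and -0.028. Without doublet scores over 0.2 Rad21, Cck and Pde10a had 0.15, 0.26 and -0.056. At 1000 genes Cck had 0.13, and with 2 Sst UMIs Pde10a had -0.00915. With mice left out, Cux2 ran from -0.59 to 0.00768, Rorb from -0.47 to 0.099, Cck from -0.42 to 0.17, Reln from -0.0853 to 0.37, Lamp5 from -0.0608 to 0.53, Mbp from -1.003 to 0.026, Gpc5 from -1.38 to 0.48 and Pde10a from -0.11 to 0.19. The causes were not tested. Of the other named values, none changed direction under the alternatives run. Depth limits these results most in control replicate 4, where 1 UMI is 12.1 CPM.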
